A study of Mus musculus with 12 samples.

Results

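The comparison described here sets the kidney cortex of untreated Tg26 mice against that of untreated wild-type (WT) mice. It was chosen from the sample labels, by genotype and by the absence of drug treatment, and takes 6 of the 12 libraries in the series. The 3 Tg26 mice and the 3 WT mice were 12 weeks old and on the FVB/N background. Tg26 mice were hemizygous for a transgene that holds regulatory and accessory genes of HIV-1, without gag and pol, under the viral long terminal repeat; WT mice did not carry it. The 6 other libraries came from mice of both genotypes given C16, an inhibitor of protein kinase R. They entered the filter on low counts, the scaling between libraries, the estimate of the spread and 1 test at the end. Tg26 mice model HIV-associated nephropathy in a body without virus replication, and the transgene is present in every cell, so that its effect on 1 cell type cannot be told apart from its effect on another. Whether the untreated mice received a vehicle is not given in the sources used here. Poly(A) RNA of outer cortex was sequenced from each mouse. In bulk tissue, fewer cells of a type and less RNA per cell cannot be told apart.

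HIV-associated nephropathy is a collapsing glomerular disease with dilated tubules, inflammation and scarring between the tubules. Most of the outer cortex is proximal tubule, whose cells take back filtered solutes and proteins and burn fatty acids in many mitochondria. When these cells are injured they lose transporters and metabolic enzymes and make secreted and adhesive proteins, while macrophages and matrix-forming fibroblasts gather around them.

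The 6 libraries held 22949316 to 27000388 gene counts each. Levels are given as CPM, the counts scaled to a common library size with TMM, which sets libraries to a common scale through the bulk of their genes, with factors of 1.08 to 1.22 in Tg26 mice, against 0.901 to 0.921 in WT mice. Calls were made where edgeR's quasi-likelihood test gave an adjusted p (Benjamini-Hochberg) below 0.05. Log2 fold changes (log2FC) are Tg26 over WT and stand with their standard error after ±. A lone value in parentheses after a gene is its log2FC, and a list is described by the number of its members called higher (rose) or lower (fell) and by its median log2FC. A level of 3 counts in each library, the limit that a count of 0 allows, averaged 0.102 CPM over Tg26 libraries and 0.136 CPM over WT libraries, and covers counting error only. The tissue fitted its label: Slc34a1, Lrp2 and Umod, which mark proximal tubule and thick ascending limb, were among the abundant transcripts of all 6 libraries. One library stood apart. Tg26 mouse 1 lay furthest from the WT mice in 85.0% of the genes called higher and in 84.3% of those called lower. Fold changes, medians and counts that moved by over 1.5 times without it are given without it beside them. All 6 mice expressed Y-linked genes.

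Tg26 cortex differed from WT cortex in 4219 of 16094 genes tested, or 26.2%. The 2528 genes called higher made 15.7% of those tested and the 1691 called lower made 10.5%. The rises were large and the falls small. Among genes called higher, 1670 differed by at least 2-fold, 675 by at least 4-fold, 240 by at least 8-fold and 100 by at least 16-fold. Among genes called lower, 123 differed by at least 2-fold, 11 by at least 4-fold and 0 by at least 8-fold. The median gene called higher was 2.55-fold above its WT level, and the median gene called lower fell by 28.8%. Genes called higher started from a median of 3.23 CPM in WT cortex, and 711 of them averaged under 1 CPM there, while genes called lower started from a median of 82.4 CPM. In 2466 of the 2528 and 1619 of the 1691, all 3 Tg26 mice lay on one side of all 3 WT mice. Over all genes tested, the mice parted in this way in 21.5% with Tg26 higher and in 18.1% with Tg26 lower.

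**Figure D1:**
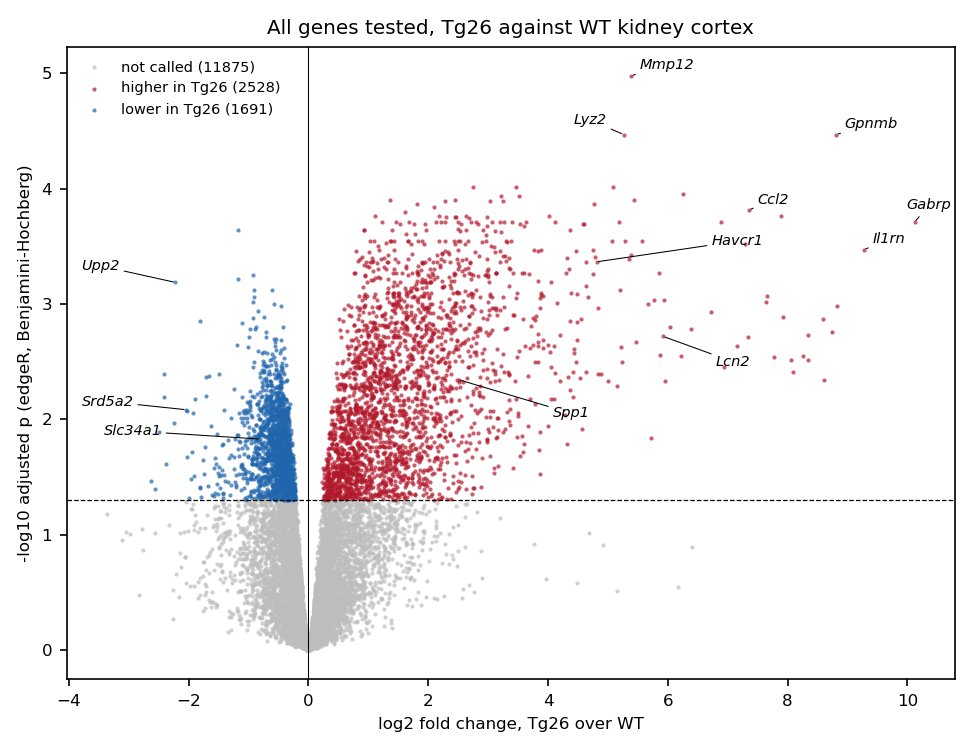
Each point is 1 of the 16094 genes tested, with the log2 fold change of Tg26 over WT cortex on the x axis and the -log10 adjusted p of edgeR on the y axis. The dashed line marks an adjusted p of 0.05, and genes called higher (2528) reach much further from 0 than genes called lower (1691).

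Genes called higher took 10.2%, 5.73% and 5.52% of the counts in Tg26 mice 1, 2 and 3, against 2.68%, 2.66% and 2.75% in WT mice. Genes called lower took 32.0%, 40.3% and 39.7% of the counts in Tg26 mice, against 47.0%, 47.3% and 46.5% in WT mice. With library sizes alone, the median log2 fold change of all genes was 0.29 in place of -0.01, and 5267 genes were called higher and 274 lower. Of the 1691 genes called lower, 1530 kept a negative sign on that scale, and all 2528 genes called higher kept a positive one. These counts depended on single libraries. Without Tg26 mouse 1, 1681 genes were called higher and 982 lower. Without WT mouse 2, 1804 and 671 were called, and without WT mouse 1 or WT mouse 3, 1115 and 1111 genes were called lower. A fit of only these 6 libraries called 1811 genes higher and 242 lower, and a covariate of Y-linked genes left 1297 and 375. Relative to the 6 mice, the mean log2 CPM of Y-linked genes was -0.41, -0.17 and 0.17 in Tg26 mice, against -0.04, 0.16 and 0.29 in WT mice. All 6 mice expressed these genes, so among them the covariate follows the level of Y-linked genes and not their presence. That level differed in part between the groups, so the fit cannot separate it from genotype.

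The largest rises were in transcripts that WT cortex all but lacked. Gpnmb, which encodes a transmembrane glycoprotein of lysosome-rich macrophages, had 32, 41.9 and 55.4 CPM in Tg26 mice, against 0.0458, 0.0422 and 0.193 CPM in WT mice. The groups did not overlap, and its log2 fold change was 8.81 ± 0.58, adjusted p = 3.41e-05, or 9.78 without WT mouse 3. Mmp12, the macrophage elastase, had 26.9, 23.2 and 22.6 CPM in Tg26 mice, against 0.687, 0.549 and 0.482 CPM in WT mice (log2FC 5.39 ± 0.30, adjusted p = 1.05e-05), the smallest adjusted p of all genes named here. In 20 of the genes called higher, no WT library held a single count. Gabrp encodes the pi subunit of the type A receptor for gamma-aminobutyric acid and had 7.10, 5.43 and 4.56 CPM in Tg26 mice, against 0 CPM in all 3 WT mice, so it was at least 41.9-fold higher than the floor of 3 counts per WT library. On the same bound, Il1rn, the antagonist of the interleukin-1 receptor, was at least 23.3-fold higher and Mmp7, the matrix protease matrilysin, at least 16.9-fold higher.

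Others of the highest were epithelial or secreted. Krt19, a keratin of duct epithelium, had 30.5, 21.7 and 11.4 CPM in Tg26 mice, against 0.275, 0.295 and 0.241 CPM in WT mice (log2FC 6.26 ± 0.51, adjusted p = 0.000112). Muc4, a membrane mucin, had 7.31, 3.89 and 3.24 CPM in Tg26 mice, against 0, 0 and 0.0482 CPM in WT mice. Both were well apart between the groups in every mouse. Ltbp2, which binds microfibrils, had 75.5, 16.9 and 16.1 CPM in Tg26 mice, against 0.412, 0.127 and 0.144 CPM in WT mice, with Tg26 mouse 1 far above the other Tg26 mice. Its log2FC of 7.29 was 6.15 without Tg26 mouse 1 and 8.01 without WT mouse 1. The metalloproteinase inhibitor Timp1 (6.04) showed the same unequal rise, with 4.61 without Tg26 mouse 1 and 8.15 without WT mouse 1. Of the other genes with the highest log2 fold changes, Lyz1 (6.89) shares much of its sequence with Lyz2, so the split of reads between these lysozymes is uncertain.

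**Figure D2:**
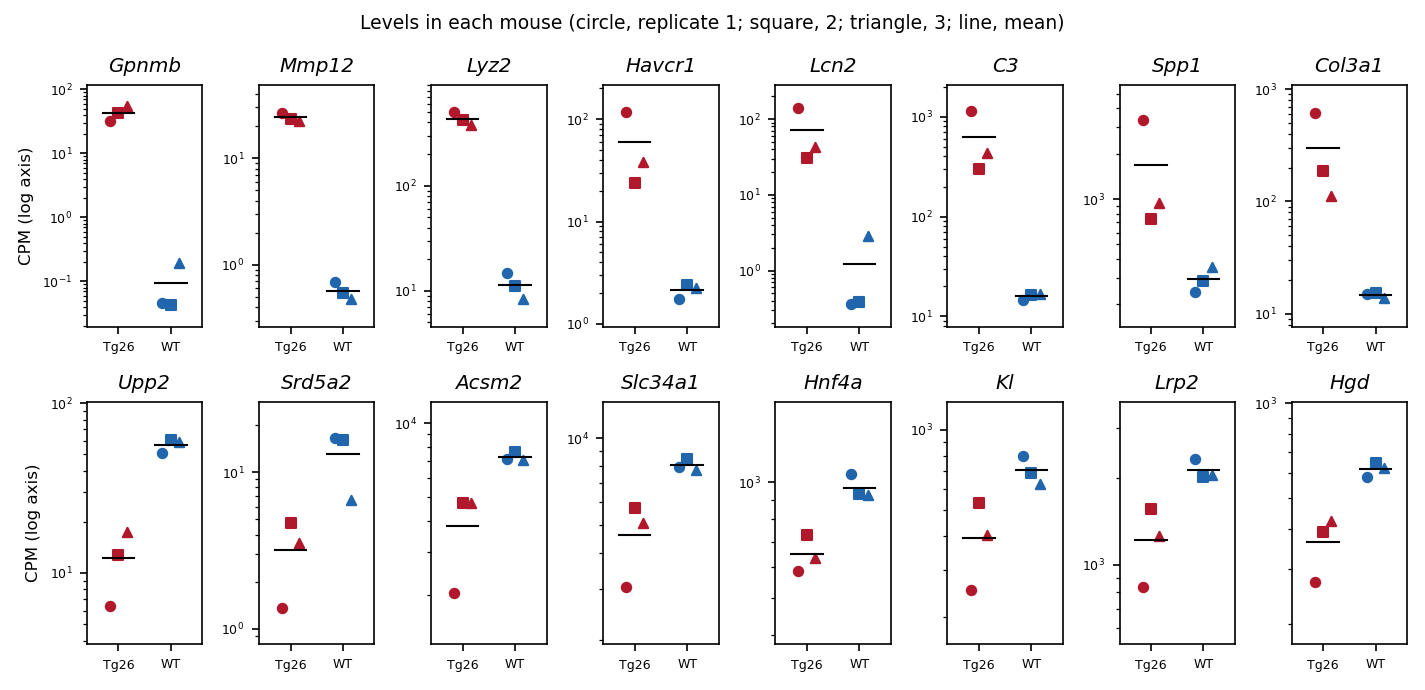
CPM of 16 genes in each mouse on a log axis, with Tg26 left and WT right in each panel, 1 symbol per replicate number and a line at the mean. In all 16 genes the 3 Tg26 mice lie on one side of the 3 WT mice, and Tg26 mouse 1 (circle) is the furthest from WT in most of them.

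Genes of tubular injury and repair rose nearly as a block. Of the 22 tested, 21 rose and 0 fell, with a median log2 fold change of 2.5 beside -0.01 for all genes. Havcr1 encodes KIM-1, a receptor that injured proximal tubule cells use to take up dead cells. It had 118, 24 and 38.3 CPM in Tg26 mice, against 1.74, 2.41 and 2.26 CPM in WT mice. The lowest Tg26 mouse lay far above the highest WT mouse, and the log2 fold change was 4.81 ± 0.60, adjusted p = 0.000431. Lcn2, the iron-carrier-binding protein NGAL, had 142, 30.7 and 43.3 CPM in Tg26 mice, against 0.366, 0.380 and 2.89 CPM in WT mice (log2FC 5.92 ± 1.0, adjusted p = 0.00191). Spp1, the secreted phosphoprotein osteopontin, was already abundant in WT cortex. It had 3366, 740.5 and 936 CPM in Tg26 mice, against 244, 286 and 356 CPM in WT mice (log2FC 2.51 ± 0.50, adjusted p = 0.00453), with Tg26 mouse 1 well above the others. Without Tg26 mouse 1, the log2FC was 3.85 for Havcr1, 4.95 for Lcn2 and 1.49 for Spp1, and all 3 kept their calls. Without WT mouse 3, that of Lcn2 was 7.57.

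The adhesion proteins of this list rose too. Cd44, a receptor for hyaluronan, had 46, 22.8 and 28.6 CPM in Tg26 mice, against 1.28, 1.31 and 0.963 CPM in WT mice (log2FC 4.77 ± 0.43, adjusted p = 0.000137). Vcam1, which holds leukocytes and marks proximal tubule cells that fail to repair, had 192, 90.9 and 94.9 CPM in Tg26 mice, against 8.74, 9.96 and 12.5 CPM in WT mice (log2FC 3.6 ± 0.38, adjusted p = 0.00021). For both, each Tg26 mouse was above each WT mouse. Ceruloplasmin, the copper ferroxidase Cp (3.0), clusterin, the secreted chaperone Clu (2.45), and vimentin, the intermediate filament Vim (2.46), were called higher as well. Of 7 keratins tested, 5 rose and 0 fell. Krt20, a keratin known from gut epithelium and urothelium, had 14.6, 7.05 and 22.1 CPM in Tg26 mice, against 0, 0.802 and 1.44 CPM in WT mice, and Krt18 and Krt7 rose by 4.07-fold and 1.77-fold. Krt18 had a log2FC of 2.03, or 1.4 without Tg26 mouse 1.

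More junction and membrane-binding genes rose than fell. Of 13 claudins, the strands of tight junctions, 6 rose and 1 fell (7.69%, beside 10.5% of all genes). Cldn4 (2.49), Cldn1 (2.23), Cldn7 (1.63) and Cldn6 (1.73) were among the risers, while Cldn12 was called lower by little (-0.36) and lost its call without any 1 of Tg26 mouse 1, WT mouse 1, WT mouse 2 or WT mouse 3. Of 18 annexins and S100 proteins, which bind calcium at membranes, 12 rose and 2 fell (11.1%). S100a6 had 65.8, 30.3 and 25.1 CPM in Tg26 mice, against 4.67, 5.15 and 4.33 CPM in WT mice (log2FC 3.1 ± 0.36, adjusted p = 0.000323), and Anxa2 and Anxa1 rose by 4.4-fold and 3.98-fold. The fallers, Anxa13 and Anxa11, kept no call without Tg26 mouse 1 or without WT mouse 2, and Anxa11 none without WT mouse 1 or WT mouse 3 either. With library sizes alone, Anxa11 had a log2 fold change of 0.0605.

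Motifs were read in the promoters of the genes tested. RefSeq start sites on GRCm38.p6 gave a window of 300 bases, from 250 before the start to 50 after it, for 11641 of the genes tested, and the AP-1 motif TGANTCA (FOS and JUN family proteins bind it; the same on both strands) was searched in each. The motif stood in 9.88% of windows of genes called higher, 6.12% of those called lower and 6.61% of all. A match is a description and not a bound site. The windows below were picked only among genes that hold the motif, so they do not show how common it is among the largest rises. Of these genes, Il1rn and Mmp7 are among the largest rises, and Cd68 is the macrophage marker described next. Each is on the strand of its gene, 5′ to 3′, with the motif in capitals and 20 bases on each side: Il1rn at chr2:24336699-24336745, Mmp7 at chr9:7692007-7692053, Cd68 at chr11:69666171-69666339, where the motif occurs 2 times.
Il1rn: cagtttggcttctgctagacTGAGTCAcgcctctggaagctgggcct
Mmp7: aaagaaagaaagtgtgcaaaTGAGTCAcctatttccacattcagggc
Cd68: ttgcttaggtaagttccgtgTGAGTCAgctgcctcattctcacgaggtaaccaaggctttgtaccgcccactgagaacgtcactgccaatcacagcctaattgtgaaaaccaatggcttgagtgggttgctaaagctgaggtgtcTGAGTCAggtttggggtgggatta
None of these matches overlaps another of the motifs searched.

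Macrophage markers were higher throughout. All 15 tested rose, with a median log2 fold change of 2.87, and their summed level was 1199.7, 846 and 741 CPM in Tg26 mice, against 142, 119.9 and 109 CPM in WT mice. Lyz2, the lysozyme of myeloid cells, had 499.9, 427 and 382 CPM in Tg26 mice, against 14.6, 11 and 8.38 CPM in WT mice (log2FC 5.26 ± 0.36, adjusted p = 3.41e-05). Mpeg1, the pore-forming perforin-2, had 108, 81.2 and 95.2 CPM in Tg26 mice, against 9.98, 9.54 and 11.1 CPM in WT mice (log2FC 3.21 ± 0.27, adjusted p = 0.000117). The lysosomal glycoprotein Cd68 had 27.8, 18.7 and 20.9 CPM in Tg26 mice, against 2.11, 2.41 and 1.59 CPM in WT mice (log2FC 3.46 ± 0.28, adjusted p = 9.75e-05), again without overlap. The Tg26 mice differed less among themselves in Lyz2 and Mpeg1 than in Havcr1 and Lcn2. The smallest rise in the list was that of Csf1r, the receptor for colony-stimulating factor 1, at 0.69, which was singled out after its value was seen.

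Other leukocytes moved less. Of 7 dendritic cell markers, 6 rose, among them the integrin Itgax, with 17.1, 10.1 and 11.9 CPM in Tg26 mice, against 1.78, 1.52 and 0.915 CPM in WT mice (log2FC 3.2 ± 0.32, adjusted p = 0.000195), and Clec9a, a receptor of cross-presenting dendritic cells (1.32). Of 11 T cell markers, 2 rose (18.2%, beside 15.7% of all genes). These were the coreceptor Cd4 (1.96), and Trbc2, whose call was lost without any 1 of the 6 libraries. Of 10 B and plasma cell markers, 1 rose (10%), the kappa light chain Igkc (1.71). It kept no call without Tg26 mouse 1, WT mouse 1 or WT mouse 3. Without WT mouse 2 or Tg26 mouse 2, 2 members were called. The median of this list was -0.72, and 0.55 over members with at least 50 counts in 3 libraries. Of 7 neutrophil markers, 1 rose (14.3%), Csf3r (1.59), and its call was lost without Tg26 mouse 1, WT mouse 2 or WT mouse 3. The neutrophil granule gene Ngp, picked here after its values were seen, had 0.0930, 0.0344 and 0 CPM in Tg26 mice, against 0.0915, 0.0844 and 0.193 CPM in WT mice.

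**Figure D3:**
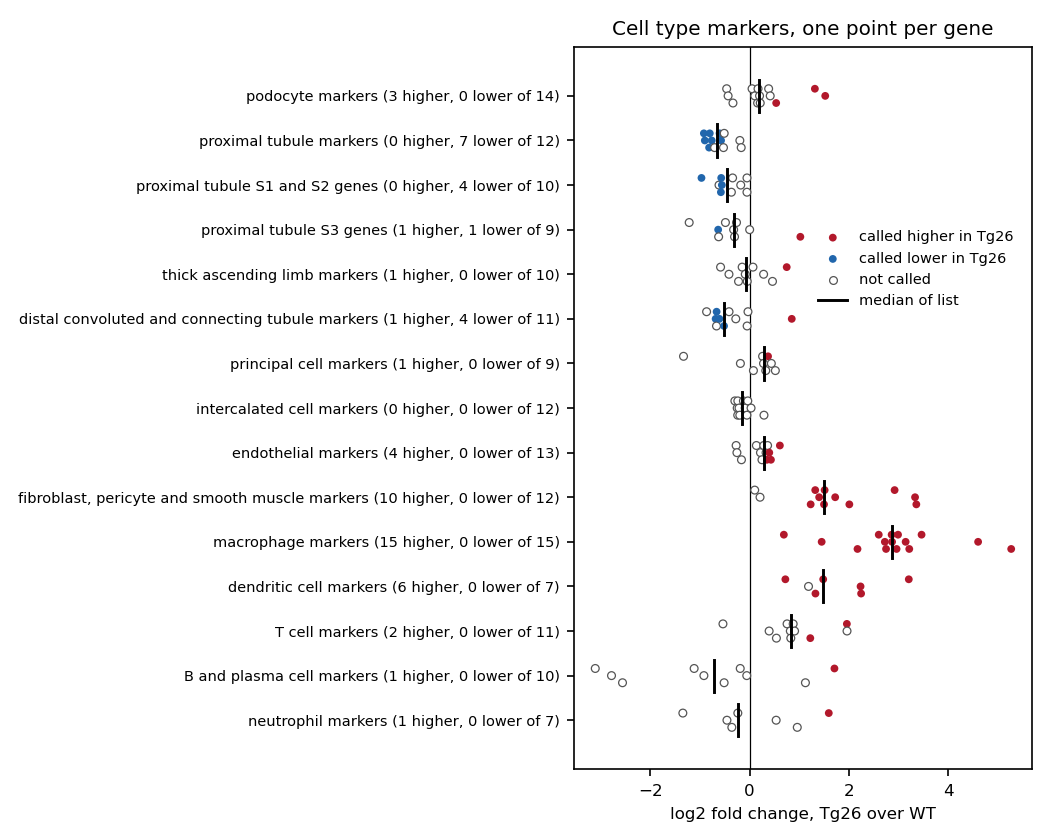
Each point is a marker gene, with its log2 fold change of Tg26 over WT cortex on the x axis and 1 row per cell type, with called genes filled, other genes open and a bar at the median of the list. All 15 macrophage markers lie to the right of 0 and 7 of 12 proximal tubule markers are called lower, while podocyte, thick ascending limb and intercalated cell markers lie around 0.

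Antigen presentation rose with the macrophage markers. All 7 genes of MHC class II rose, with a median of 2.36. Cd74, the invariant chain, had 1137, 632 and 477 CPM in Tg26 mice, against 164, 129 and 124 CPM in WT mice (log2FC 2.43 ± 0.32, adjusted p = 0.000557). H2-Ab1, a beta chain, had 301, 168 and 127 CPM in Tg26 mice, against 41.1, 31.4 and 31.5 CPM in WT mice (log2FC 2.52 ± 0.32, adjusted p = 0.000469), and Ciita, the factor that switches class II genes on, had 10.4, 9.25 and 7.77 CPM in Tg26 mice, against 2.24, 2.11 and 2.79 CPM in WT mice (log2FC 1.94 ± 0.20, adjusted p = 0.000204). None of these overlapped between the groups. Of 11 genes of MHC class I presentation, 10 rose, with a smaller median of 1.16, among them the immunoproteasome subunit Psmb8 (1.79) and the peptide transporter Tap2 (1.09). Class I heavy chains such as H2-K1 (1.21) share sequence with their neighbours, so their reads are uncertain. The part of the rise in macrophage markers in these values was not tested.

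Signals that draw and arm leukocytes were higher. Of 23 chemokines, 20 rose and 0 fell (1 fell without any 1 of the Tg26 mice), with a median of 3.14, or 3.03 with the 3 members at 0 in all WT mice set at their lower bounds. Ccl2, which attracts monocytes, had 11.3, 8.73 and 4.79 CPM in Tg26 mice, against 0.0458, 0 and 0.0963 CPM in WT mice (adjusted p = 0.000153). Ccl6 had 33.2, 15.7 and 19 CPM in Tg26 mice, against 1.92, 1.9 and 2.75 CPM in WT mice (log2FC 3.37 ± 0.44, adjusted p = 0.000499), and Cxcl2, which attracts neutrophils, rose from a lower level (4.63, or 5.27 without WT mouse 3). Ccl21a, a chemokine of lymphatic vessels, had 5.7, 10.0 and 8.47 CPM in Tg26 mice, against 2.47, 1.56 and 2.36 CPM in WT mice. In these 4 genes the lowest Tg26 mouse was above the highest WT mouse. Of 16 genes of NF-kB subunits and targets, 14 rose and 0 fell (median 1.36), among them Traf1, an adaptor of TNF receptors (2.5), the subunit Relb (2.21) and the kinase Ikbke (1.7).

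Of 15 complement genes, 12 rose and 1 fell. C3, the central component, had 1129, 302 and 429 CPM in Tg26 mice, against 14.7, 16.4 and 16.8 CPM in WT mice (log2FC 5.28 ± 0.60, adjusted p = 0.000287), one of the 8 largest rises in mean CPM. The WT mice lay close together, and the lowest Tg26 mouse was far above them. Without Tg26 mouse 1 its log2FC was 4.51. The receptors C3ar1 (2.84) and C5ar1 (2.79) and the protease C1s1 (1.47) rose, and factor B, Cfb, was called lower (-0.48) but not without WT mouse 1 or WT mouse 2. Of 18 acute-phase genes, 10 rose, among them Serpina3n, a serine protease inhibitor (3.84), and Steap4, a metalloreductase (2.35). Their median was 2.07, or 1.37 without Tg26 mouse 1 and 2.75 without WT mouse 1. Of 15 genes of interleukin-6 family signaling, 8 rose. The cytokine Lif (3.41), its relative Clcf1 (2.22), the receptor Osmr (1.83) and the feedback inhibitor Socs3 (3.13) were among them. Stat3, the factor they act through, had 185, 132 and 163 CPM in Tg26 mice, against 73.2, 113 and 133 CPM in WT mice and no call. Of 11 inflammasome and necroptosis genes, 9 rose, among them the inflammatory caspases Casp4 (2.72) and Casp1 (2.03) and the pore-forming Gsdmd (1.43).

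Interferon-stimulated genes were higher, with calls that depended on single libraries. Of 25 tested, 21 rose and 0 fell, with a median of 1.4. Without Tg26 mouse 1, 8 were called and the median was 0.76, and without WT mouse 1, 2 or 3, 11, 10 and 11 were called. With only the 6 untreated libraries, 7 were called. Gbp2, a GTPase that attacks vacuoles of microbes, had 24.4, 20.7 and 8.84 CPM in Tg26 mice, against 4.94, 2.62 and 4.0 CPM in WT mice (log2FC 2.23 ± 0.37, adjusted p = 0.0018). Its relative Gbp3 had 27.2, 11.2 and 8.61 CPM in Tg26 mice, against 3.52, 3.67 and 4.67 CPM in WT mice (log2FC 1.99 ± 0.39, adjusted p = 0.00424). Both were apart between the groups, with Tg26 mouse 3 nearest to WT. Ifih1, the sensor of double-stranded RNA called MDA5, had 11.4, 6.57 and 6.11 CPM in Tg26 mice, against 3.2, 3.21 and 2.6 CPM in WT mice (log2FC 1.42 ± 0.24, adjusted p = 0.00194). The antiviral Oasl2 rose by 3.96-fold (1.98). Without Tg26 mouse 1, the log2FC was 1.32 for Gbp3 and 1.33 for Oasl2.

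The interferon response element was read in the same windows as GAAANNGAA on either strand. It stood in 12.1% of windows of genes called higher, 7.76% of those called lower and 8.93% of all. Gbp2 and Gbp3 are shown because both rose and both hold the element close to the start, at chr3:142620585-142620633 and chr3:142559980-142560034. On the strand of the gene both read as the reverse complement of the motif, here in capitals, and in Gbp3 2 matches overlap each other.
Gbp2: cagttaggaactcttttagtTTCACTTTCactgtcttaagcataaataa
Gbp3: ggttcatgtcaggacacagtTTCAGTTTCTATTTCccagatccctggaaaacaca
Of the other motifs, TTCCNGGAA, read by STAT factors, stood in 1.75% of windows of genes called higher and 1.59% of all. The HNF1 motif GTTAATNAT stood in 1.10% of windows of genes called lower and 0.722% of all, or 14 and 84 windows.

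Matrix genes rose strongly. Of 19 collagens, 16 rose and 2 fell (10.5%, beside 10.5% of all genes), with a median of 2.3, or 1.63 without Tg26 mouse 1. Col3a1, the chain of type III collagen of scars, had 608, 186 and 111 CPM in Tg26 mice, against 15, 15.3 and 13.9 CPM in WT mice (log2FC 4.36 ± 0.56, adjusted p = 0.000499). Col1a2, of type I collagen, had 612, 197 and 140.1 CPM in Tg26 mice, against 28.5, 29 and 36.1 CPM in WT mice (log2FC 3.34 ± 0.46, adjusted p = 0.000696). Each Tg26 mouse was above each WT mouse, and Tg26 mouse 1 held the highest level by far. Without it, the log2FC was 3.33 for Col3a1 and 2.42 for Col1a2, and both kept their calls. Chains of basement membranes went both ways. Col4a1 had 1158, 503 and 489 CPM in Tg26 mice, against 312, 327 and 333 CPM in WT mice (log2FC 1.15 ± 0.28, adjusted p = 0.0116) and Col18a1 rose by 2.69-fold. Col4a4, which with Col4a3 and Col4a5 forms the type IV collagen of the mature glomerular membrane, had 214, 299 and 336 CPM in Tg26 mice, against 449, 536 and 499 CPM in WT mice (log2FC -0.81 ± 0.16, adjusted p = 0.00432). Its groups did not overlap. Col4a3 was called lower too (-0.72), but not without WT mouse 2 (adjusted p = 0.0557).

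Of 19 other matrix genes, 16 rose and 0 fell (median 1.63). Thrombospondin 1, Thbs1, which activates latent TGF-beta, had 108, 59.1 and 46.2 CPM in Tg26 mice, against 11.9, 12 and 12.9 CPM in WT mice (log2FC 2.54 ± 0.28, adjusted p = 0.000233), and Thbs2 and the fibulin Fbln1 rose by 8.65-fold and 8.78-fold. Of 18 proteases of matrix and their inhibitors, 15 rose and 1 fell. The gelatinase Mmp2 had 48.2, 28.5 and 21.3 CPM in Tg26 mice, against 1.78, 2.87 and 3.23 CPM in WT mice (log2FC 3.64 ± 0.37, adjusted p = 0.000195), and Mmp14, the membrane protease that activates it, had 68.5, 33.8 and 32.9 CPM in Tg26 mice, against 4.35, 6.67 and 6.36 CPM in WT mice (log2FC 2.96 ± 0.34, adjusted p = 0.000283). The groups were apart in both. The inhibitor Timp2 rose (1.68), as Timp1 did, while Timp3, an inhibitor bound to matrix, was the member called lower (-0.49), and its call was lost without Tg26 mouse 1, WT mouse 1, WT mouse 2 or WT mouse 3.

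Markers of fibroblasts, pericytes and smooth muscle rose in 10 of 12 (median 1.5), with a summed level of 509, 360.2 and 326 CPM in Tg26 mice, against 147, 163 and 185 CPM in WT mice. Pdgfrb, the receptor of pericytes and fibroblasts, had 90.8, 58.6 and 57.2 CPM in Tg26 mice, against 20.2, 21.1 and 21.4 CPM in WT mice (log2FC 1.72 ± 0.21, adjusted p = 0.000366), and the contractile protein Tagln and the proteoglycans Dcn and Lum rose by 4.02-fold, 2.64-fold and 10.2-fold. In Pdgfrb the WT mice lay close together. Of 18 genes of the TGF-beta and PDGF pathways, 11 rose and 0 fell. Tgfb1 had 32.1, 15.9 and 13 CPM in Tg26 mice, against 6.0, 5.07 and 4.91 CPM in WT mice (log2FC 1.93 ± 0.28, adjusted p = 0.000851), Tgfb2 rose by 6.62-fold (2.73, or 2.1 without Tg26 mouse 1), and Ccn2, the connective tissue growth factor that TGF-beta induces, had 234, 229 and 203 CPM in Tg26 mice, against 63.9, 81.9 and 91.5 CPM in WT mice (log2FC 1.49 ± 0.19, adjusted p = 0.000431). The signal carrier Smad2 had 36.7, 37.8 and 35.2 CPM in Tg26 mice, against 35.6, 35.6 and 33.3 CPM in WT mice and no call.

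Other developmental pathways had few but clear risers. Of 7 Hedgehog genes tested, 4 rose, and without Tg26 mouse 1, WT mouse 2 or WT mouse 3, 2 were called. They included Gli1, the transcriptional effector and target of the pathway, with 2.67, 2.3 and 1.62 CPM in Tg26 mice, against 0.275, 0.507 and 0.289 CPM in WT mice (log2FC 2.6 ± 0.39, adjusted p = 0.00106). Its groups did not overlap. Of 15 Wnt genes, 6 rose, among them the ligand Wnt4 (3.0) and the targets Axin2 (1.95) and Nkd1 (1.96). Of 11 Notch genes, 5 rose, among them the receptor Notch3 of mural cells (1.08), the ligand Jag1 (0.89) and the target Heyl (1.47). Areg, an epidermal growth factor ligand that injured epithelium releases, had 1.58, 0.516 and 1.44 CPM in Tg26 mice, against 0, 0 and 0.0482 CPM in WT mice (adjusted p = 0.00279).

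Genes of mitosis rose in 12 of 16 (median 1.52). Mki67, the marker of cycling cells, had 27.1, 11.6 and 10.9 CPM in Tg26 mice, against 1.97, 3.59 and 5.68 CPM in WT mice (log2FC 2.15 ± 0.47, adjusted p = 0.00725), and the checkpoint kinase Bub1b rose by 4.65-fold (2.22, or 1.63 without Tg26 mouse 1). Without Tg26 mouse 1, 4 were called, without WT mouse 1, 6, and with the covariate of Y-linked genes 0. Of 15 DNA replication genes, 6 rose, and 1 was called without Tg26 mouse 1, without WT mouse 1 or without WT mouse 2, and 3 without WT mouse 3.

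Of 12 proximal tubule markers, 7 fell and 0 rose (median -0.66). Without WT mouse 2, 3 were called lower, and with only the 6 untreated libraries, 2. Of 10 genes of segments S1 and S2, 4 fell and 0 rose (median -0.46), but 1 was called without Tg26 mouse 1, Tg26 mouse 3, WT mouse 1 or WT mouse 2, 2 without WT mouse 3 and 1 with library sizes alone. Of 9 genes of segment S3, 1 fell, or 11.1% beside 10.5% of all genes, and 1 rose (median -0.32). The riser was the angiotensin precursor Agt (1.02), which kept no call without Tg26 mouse 1, WT mouse 1 or WT mouse 2, and the faller kept none without any 1 of the WT mice. Cubn and Lrp2 encode cubilin and megalin, the receptors that take back filtered protein. Cubn had 269, 374 and 416 CPM in Tg26 mice, against 569, 575 and 652 CPM in WT mice (log2FC -0.76 ± 0.14, adjusted p = 0.00339), and Lrp2 had 835, 1557 and 1256 CPM in Tg26 mice, against 2344, 2018 and 2058 CPM in WT mice (log2FC -0.82 ± 0.19, adjusted p = 0.00987). The highest Tg26 mouse lay below the lowest WT mouse in both. Slc34a1, the sodium-phosphate cotransporter, had 3067, 5715 and 5082 CPM in Tg26 mice, against 7944, 8474 and 7757 CPM in WT mice (log2FC -0.80 ± 0.20, adjusted p = 0.0148), and its adjusted p was 0.0522 without WT mouse 2. Kl encodes klotho, the coreceptor of the phosphate hormone FGF23. It had 252, 531 and 403 CPM in Tg26 mice, against 802, 687 and 628 CPM in WT mice (log2FC -0.84 ± 0.21, adjusted p = 0.0141). With only the 6 untreated libraries, Lrp2, Slc34a1 and Kl were not called. Slc34a2, the cotransporter of lung and gut, went the other way from a low level, with 14.5, 7.81 and 16.8 CPM in Tg26 mice, against 2.93, 2.79 and 3.85 CPM in WT mice (log2FC 2.03 ± 0.26, adjusted p = 0.000498).

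Transporters of the same cells fell in part. Slc6a19, the carrier of neutral amino acids, had 204, 298 and 283 CPM in Tg26 mice, against 435, 583 and 518 CPM in WT mice (log2FC -0.97 ± 0.22, adjusted p = 0.00822). Of 18 organic ion and drug transporters, 10 fell and 0 rose (median -0.52), among them Slco1a6 (-1.0) and the urate exporter Abcg2 (-0.44). Their count was 6 without Tg26 mouse 1 or Tg26 mouse 3 and 4 without WT mouse 1 or WT mouse 2. It was 2 with library sizes alone and 1 with only the 6 untreated libraries. Of 20 transcription factors of tubule identity and metabolism, 8 fell and 0 rose (median -0.34). Hnf4a, which drives proximal tubule genes, had 586, 728 and 634 CPM in Tg26 mice, against 1048, 929 and 925 CPM in WT mice (log2FC -0.58 ± 0.13, adjusted p = 0.00865). Klf15, a glucocorticoid-induced factor of amino acid breakdown, had 78.9, 112 and 95.6 CPM in Tg26 mice, against 178, 166 and 169 CPM in WT mice (log2FC -0.84 ± 0.13, adjusted p = 0.00114). Both were apart between the groups, as was Tfam, which packs mitochondrial DNA (-0.55). With library sizes alone, 2 of the 20 were called lower and 2 higher.

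Genes of amino acid breakdown fell. Of 27 genes, 20 fell and 1 rose, with a median of -0.78. Hgd, of tyrosine breakdown, had 271, 393 and 425 CPM in Tg26 mice, against 585, 646 and 623 CPM in WT mice (log2FC -0.77 ± 0.15, adjusted p = 0.0037), and Kmo, of the kynurenine pathway, had 62.4, 115 and 135 CPM in Tg26 mice, against 190.0, 212 and 214 CPM in WT mice (log2FC -0.98 ± 0.21, adjusted p = 0.00692). In both genes each Tg26 mouse was below each WT mouse. The riser was the mitochondrial arginase Arg2, with 23.7, 8.77 and 20.1 CPM in Tg26 mice, against 3.89, 4.22 and 6.16 CPM in WT mice (log2FC 1.88 ± 0.43, adjusted p = 0.009). With WT mouse 2 left out, 12 of the 27 were called lower, with library sizes alone 13 and with only the 6 untreated libraries 3.

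Gluconeogenesis, which the cortex shares with liver, fell in 5 of 7 genes and rose in 1. Leaving out WT mouse 2 gave 3 called lower, and only the 6 untreated libraries gave 1. Without Tg26 mouse 1 or any 1 of the WT mice, 0 were called higher. The glucose-6-phosphate carrier Slc37a4 had 224, 365 and 323 CPM in Tg26 mice, against 484, 564 and 515 CPM in WT mice (log2FC -0.78 ± 0.16, adjusted p = 0.0052), and Fbp1, fructose-bisphosphatase, had 737, 953 and 961 CPM in Tg26 mice, against 1236, 1415 and 1309.7 CPM in WT mice (log2FC -0.58 ± 0.13, adjusted p = 0.00691). Both were lower in every Tg26 mouse than in any WT mouse. Of 18 peroxisomal enzymes, 8 fell and 0 rose (median -0.60), among them the D-amino acid oxidase Dao (-0.48). That count was 1 without WT mouse 2, 5 without WT mouse 1 and 4 without WT mouse 3. It was 1 with library sizes alone and 1 with only the 6 untreated libraries. Glycolysis genes went both ways, with 4 of 19 higher (21.1%, beside 15.7% of all genes) and 4 lower (21.1%, beside 10.5%). Without WT mouse 2, 2 were called higher and 1 lower, and without Tg26 mouse 1 or WT mouse 3, 2 were called higher. With only the 6 untreated libraries, 3 were called higher and 0 lower. Hk3, the hexokinase of myeloid cells, had 3.47, 3.16 and 3.64 CPM in Tg26 mice, against 0.275, 0.338 and 0.482 CPM in WT mice (log2FC 3.22 ± 0.35, adjusted p = 0.00024), while Pgk1, the phosphoglycerate kinase of all cells, had 458, 546 and 546 CPM in Tg26 mice, against 689.7, 741 and 720.5 CPM in WT mice (log2FC -0.47 ± 0.10, adjusted p = 0.0057). The median of this list was -0.21, and 0.10 with library sizes alone.

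**Figure D4:**
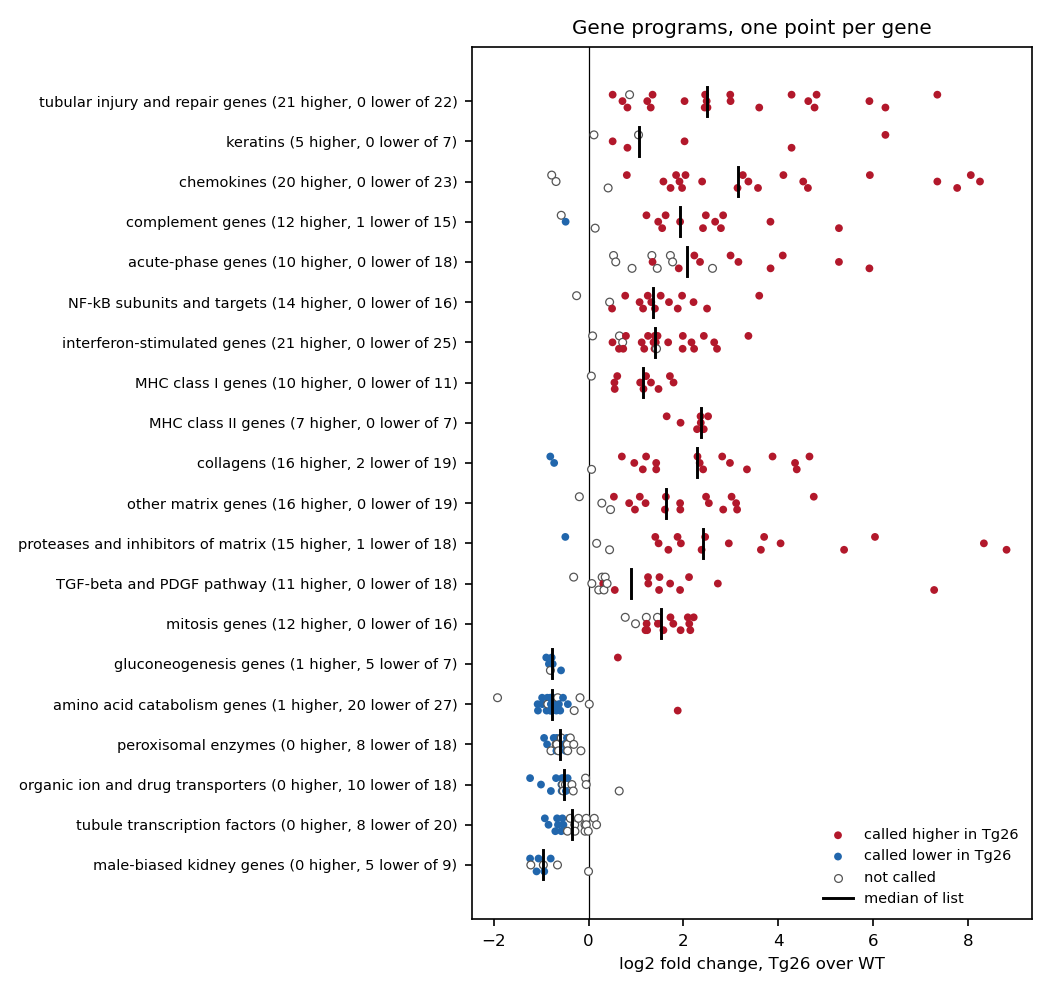
Log2 fold change of Tg26 over WT cortex for each gene of 20 lists, with called genes filled, other genes open and a bar at the median of each list. Lists of injury, inflammation and matrix spread far to the right of 0, and most genes of the lists of tubular metabolism and transport lie left of 0, with exceptions such as Arg2 at 1.88.

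The lowest single genes had specialised roles. Upp2, a uridine phosphorylase of liver and kidney, had 6.41, 12.7 and 17.4 CPM in Tg26 mice, against 50.7, 60.7 and 58.6 CPM in WT mice (log2FC -2.22 ± 0.31, adjusted p = 0.00065). Its groups were far apart. Srd5a2, a steroid 5-alpha-reductase, had 1.36, 4.71 and 3.53 CPM in Tg26 mice, against 16.6, 16.1 and 6.65 CPM in WT mice (log2FC -2.04 ± 0.46, adjusted p = 0.00823), and Eif4ebp3, a repressor of translation initiation, had 16.2, 11.5 and 46.1 CPM in Tg26 mice, against 68.2, 117 and 113 CPM in WT mice (log2FC -2.02 ± 0.45, adjusted p = 0.00844, or -2.85 without Tg26 mouse 3). Klf1, a transcription factor of red cell precursors, had 0.806, 0.619 and 1.62 CPM in Tg26 mice, against 2.47, 3.84 and 3.66 CPM in WT mice (log2FC -1.72 ± 0.36, adjusted p = 0.0063). Hrg, a plasma glycoprotein rich in histidine, and Shisa3, an inhibitor of Wnt receptors, had log2 fold changes of -1.89 and -1.66. Ugt1a8 (-1.81) shares exons with the other genes of its cluster, so its reads are uncertain. Of genes that male kidneys express more than female ones, 5 of 9 fell and 0 rose (median -0.95). Without WT mouse 1 or WT mouse 2, 2 were called, and with only the 6 untreated libraries, 1. Cyp4b1, an enzyme of fatty acid hydroxylation, had 1407, 3603 and 2979.6 CPM in Tg26 mice, against 5899.5, 5666 and 5027 CPM in WT mice (log2FC -1.05 ± 0.28, adjusted p = 0.0166). Kap, the androgen-regulated protein of proximal tubule, had 7326, 16867 and 14610.0 CPM in Tg26 mice, against 27270.0, 24088 and 22734 CPM in WT mice (log2FC -0.93 ± 0.27, adjusted p = 0.024), with an adjusted p of 0.0699 without WT mouse 1 and 0.0597 without WT mouse 2.

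Other segments and cell types were called unevenly. Of 14 podocyte markers, 3 rose (21.4%, beside 15.7% of all genes) and 0 fell (median 0.18). With library sizes alone, 7 were called higher. Nphs1, which encodes nephrin of the slit diaphragm, had 9.2, 24.9 and 24.9 CPM in Tg26 mice, against 22.8, 32 and 26.3 CPM in WT mice and no call, and its groups overlapped. The risers were Kirrel, a nephrin-like protein also found outside podocytes, with 21.7, 14.4 and 18.3 CPM in Tg26 mice, against 5.08, 7.56 and 6.31 CPM in WT mice (log2FC 1.52 ± 0.21, adjusted p = 0.000647), Tcf21, a factor of podocytes and stroma (1.31), and the actin-binding Synpo (0.53). Kirrel was apart between the groups. Of 10 thick ascending limb markers, 1 rose (10%), the claudin Cldn19 (0.75), and 0 fell, with 3 called higher with library sizes alone. Their median was -0.07, and above 0 with library sizes alone (0.22) or without Tg26 mouse 1 (0.16). Egf, which this segment secretes, had 319, 1374 and 1742 CPM in Tg26 mice, against 1578, 1758 and 1817 CPM in WT mice and no call. Of 12 intercalated cell markers, 0 were called. DESeq2 called 0 of them as well, 0 had an unadjusted p under 0.05 in edgeR, 2 were called higher with library sizes alone, and 1 was called lower without Tg26 mouse 2. Of 9 principal cell markers, 1 rose (11.1%), the sodium channel subunit Scnn1b (0.37). Without Tg26 mouse 1 or WT mouse 1, 2 were called, and with library sizes alone 4. Of 11 markers of distal convoluted and connecting tubule, 4 fell (36.4%, beside 10.5% of all genes, median -0.52) and 1 rose, the calcium channel Trpv5 (0.85), whose call was lost without Tg26 mouse 1 or any 1 of the WT mice. The calcium binder Calb1 had 131, 165 and 184 CPM in Tg26 mice, against 209.7, 291 and 269 CPM in WT mice (log2FC -0.68 ± 0.18, adjusted p = 0.0164), and no call without Tg26 mouse 1 or WT mouse 2. Leaving out WT mouse 2, 0 of the 4 were called lower, without Tg26 mouse 1, 1, and without WT mouse 1 or WT mouse 3, 2. With library sizes alone or with only the 6 untreated libraries, 0 were called lower. Of 13 endothelial markers, 4 rose (30.8%, beside 15.7% of all genes), among them Cdh5, the cadherin of endothelium, with 48.9, 40.3 and 35.9 CPM in Tg26 mice, against 26.5, 28.5 and 27.2 CPM in WT mice (log2FC 0.61 ± 0.12, adjusted p = 0.00412). That count was 1 without WT mouse 1, 2 without WT mouse 2, WT mouse 3 or Tg26 mouse 1, 7 without Tg26 mouse 3 and 10 with library sizes alone.

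The integrated stress response, in which phosphorylation of eIF2 favours ATF4, had more genes called higher than lower. Of 20 genes, 8 rose (40%, beside 15.7% of all genes) and 2 fell (10%, beside 10.5%). Without Tg26 mouse 1, WT mouse 1 or WT mouse 2, 4 were called higher, and without WT mouse 3, 5. The cystine carrier Slc7a11 had 3.28, 3.03 and 2.69 CPM in Tg26 mice, against 0.275, 0.295 and 0.578 CPM in WT mice (log2FC 2.97 ± 0.40, adjusted p = 0.000566), and Atf3 (2.09) and Nupr1 (2.05), both induced by stress, rose. Slc7a11 was apart between the groups. Shmt2, of mitochondrial one-carbon metabolism, had 154, 268 and 248 CPM in Tg26 mice, against 411, 428 and 339 CPM in WT mice (log2FC -0.82 ± 0.18, adjusted p = 0.00832) and Eif2ak1, the heme-regulated eIF2 kinase, fell (-0.43). Of 23 antioxidant genes, 6 fell and 1 rose, and that rise was not called without Tg26 mouse 1 or any 1 of the WT mice. The extracellular superoxide dismutase Sod3 had 368, 419.7 and 377 CPM in Tg26 mice, against 562, 596 and 524 CPM in WT mice (log2FC -0.53 ± 0.10, adjusted p = 0.00423), and Sod2, its mitochondrial relative, had a log2 fold change of -0.58. Gpx3, the glutathione peroxidase that proximal tubule secretes, had 20176, 18971 and 18297 CPM in Tg26 mice, against 23771, 26710.0 and 27571 CPM in WT mice, without overlap and without a call. With WT mouse 2 left out, 3 of the 23 were called lower, and with library sizes alone 0, with 5 higher. With only the 6 untreated libraries, 1 was called lower.

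Genes often used as internal references were called in part. Of 18, 2 were called higher (11.1%, beside 15.7% of all genes) and 6 lower (33.3%, beside 10.5%). Without WT mouse 2, 0 were called higher and 2 lower. With only the 6 untreated libraries, 0 were called. The median was -0.19, or 0.12 with library sizes alone. Vdac1, a channel of the outer mitochondrial membrane, had 453, 600.0 and 593 CPM in Tg26 mice, against 807, 799.8 and 776 CPM in WT mice (log2FC -0.53 ± 0.11, adjusted p = 0.00657). Actb (0.58) and B2m (0.61) were called higher, neither of them without Tg26 mouse 1, WT mouse 2 or WT mouse 3, and B2m not without WT mouse 1. Gapdh (-0.40) and Ywhaz (-0.47) were called lower, but not without WT mouse 2. Of 32 cytosolic ribosomal protein genes, 0 were called by edgeR and 1 by DESeq2, and 11 were called higher without Tg26 mouse 3 and 26 with library sizes alone.

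The Tg26 mice were unequal. As the mean log2 CPM of a list relative to the 6 mice, injury genes stood at 2.11, 1.08 and 1.12 in Tg26 mice, against -1.62, -1.45 and -1.23 in WT mice, and collagens at 1.72, 0.69 and 0.38 in Tg26 mice, against -1.07, -0.91 and -0.82 in WT mice. Macrophage markers stood at 1.98, 1.25 and 0.94 in Tg26 mice, against -1.28, -1.41 and -1.48 in WT mice. Tg26 mouse 1 was highest in all 3 lists. Proximal tubule markers ran the other way, at -0.70, -0.03 and -0.25 in Tg26 mice, against 0.45, 0.29 and 0.24 in WT mice, with Tg26 mouse 1 lowest. Podocyte markers stood at -0.01, 0.22 and 0.19 in Tg26 mice, against -0.26, -0.07 and -0.08 in WT mice. Tg26 mouse 1 was again the lowest Tg26 mouse, but it stood above all 3 WT mice. Over 13896 genes at or above 1 CPM, the SD of log2 CPM was larger among Tg26 than among WT mice in 67.6%, with a median of 0.226 among Tg26 mice and 0.152 among WT mice.

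**Figure D5:**
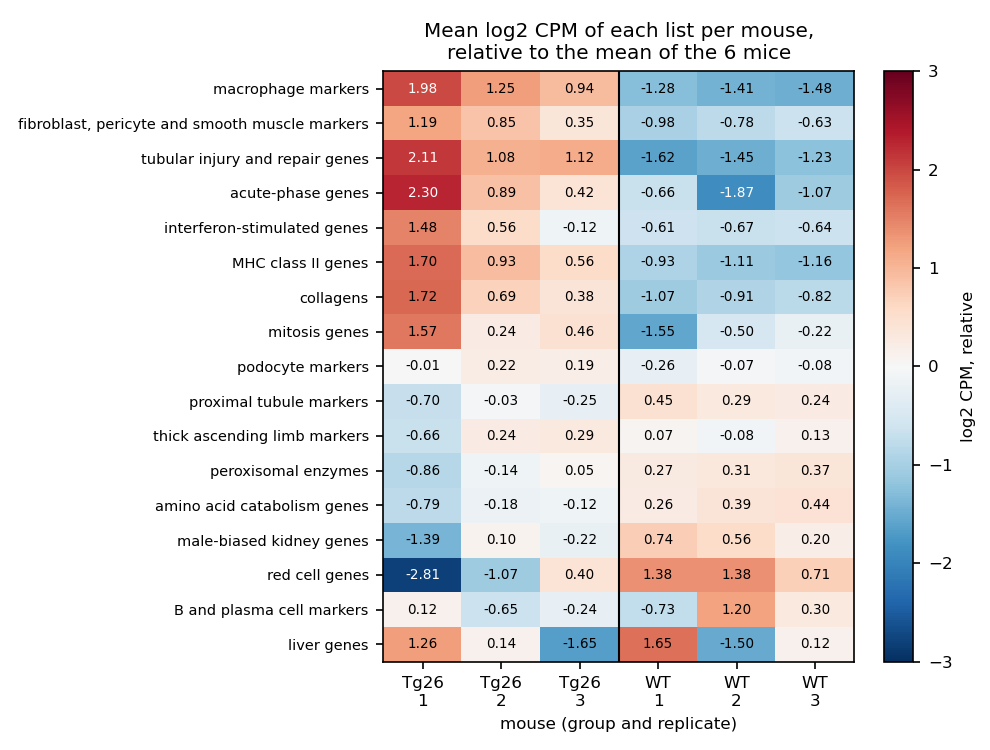
Mean log2 CPM of each list in each mouse relative to the mean of the 6 mice, with Tg26 mice left of WT mice, red above and blue below the mean. Macrophage, injury and collagen rows are positive in all 3 Tg26 mice and highest in Tg26 mouse 1 (1.98, 2.11 and 1.72).

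Whether the genotype difference was the same under C16 was asked once, in the same fit. The test of genotype by treatment called 0 of 16094 genes (0%) by edgeR, where 2047 had an unadjusted p under 0.05 and the smallest adjusted p was 0.218. DESeq2 called 158. The genotype difference of untreated mice was therefore not shown by edgeR to differ from that of C16-treated mice in any single gene, which does not show that they were alike.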

How the data were processed

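Outer kidney cortex of 12 mice was profiled by stranded poly(A) RNA sequencing, and 6 libraries, 3 of untreated Tg26 and 3 of untreated WT mice, form the comparison. The authors trimmed reads with cutadapt 1.18, aligned them with STAR 2.7.0f to the mouse genome mm10 and estimated counts per gene with RSEM 1.3.1 on Ensembl release 96. The deposited values are RSEM expected counts, held as whole numbers and not normalized. RSEM divides reads shared between similar genes by a model, so near-identical copies are uncertain, and poly(A) selection leaves out transcripts without a tail. Transcripts of the transgene were not analysed here. Library totals were 22949316 to 27000388, so a count of 3 in each library is the floor.

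Counts were fitted with edgeR 4.0.16 (R 4.3.3) by its quasi-likelihood test, with TMM factors, filterByExpr (count minimum 10, total minimum 15) and Benjamini-Hochberg adjustment over 16094 of 55450 genes. All 12 libraries entered 1 fit of 4 groups, which share 1 estimate of the spread. CPM used effective library sizes, and log2 CPM by mouse a prior count of 2. The labels give numbered samples per group, and p-values measure the spread between these samples. The script was tested on simulated data. Replicate numbers occur in all groups, but deviations of same-numbered mice did not correlate throughout, so the numbers were not treated as pairs.

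The comparison and the 66 gene lists were chosen with earlier results of these data known, and a list of liver genes was added after the values were seen. Named are, among called genes that averaged at least 1 CPM and did not overlap, the 12 with the highest and the 12 with the lowest log2 fold change, the 8 largest rises and falls in mean CPM, the 4 members of each list with the smallest adjusted p, any member called against the majority of its list, and the genes that the study names. Sex-linked, predicted and receptor segment genes were left out of the first parts of that rule, and not all genes that it gives are described. Alternatives were RLE and upper-quartile factors, library sizes alone, TMM without mitochondrial genes, DESeq2 1.42.0, limma-voom 3.58.1 with quality weights, no filter, at least 50 counts in 3 libraries, a replicate block, only the 6 libraries, a covariate of Y-linked genes and each library left out. Figures were drawn with matplotlib 3.10.9.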

Additional observations from a re-analysis of the deposited data

How the results depend on the processing

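The count of 4219 called genes was 2053 with only the 6 untreated libraries and 1672 with a covariate of Y-linked genes, and lay between 2475 and 4832 when 1 library was left out. Of the 2528 genes called higher, the count was 5267 with library sizes alone and 1297 with that covariate, and 1681 to 2767 with 1 library left out. For the 1691 genes called lower, it was 274 with library sizes alone, 242 with the 6 libraries and 375 with the covariate, and 671 to 2065 with 1 library left out. Without WT mouse 2 the total was 2475 and without Tg26 mouse 1 it was 2663. Some of these fits used fewer libraries, and the causes were not tested. The 0 calls of genotype by C16 in edgeR were 158 in DESeq2, 2 in limma-voom and 6 without a filter. Of 250 called genes that the naming rule gives, 129 kept sign and call under every alternative and 80 lost the call without at least 1 library. With the replicate number as a block, 4051 genes were called, 2370 higher and 1681 lower. The deviations of same-numbered Tg26 and WT mice correlated at 0.05, -0.18 and 0.17 for numbers 1, 2 and 3, and not every sample correlated best with its own number. Of the genes named in the text, Anxa11 changed sign, to 0.0605, with library sizes alone. Genes with few counts are limited by depth, and 711 of the genes called higher averaged under 1 CPM in WT cortex.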

Other observations

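More lysosomal genes were called higher than lower. Of 16 tested, 6 were called higher and 2 lower (12.5%, beside 10.5% of all genes). Without WT mouse 1, 3 were called higher. Without any 1 of Tg26 mouse 1, Tg26 mouse 2, WT mouse 2 or WT mouse 3, 1 was called lower. The cathepsin Ctss of antigen-presenting cells had 135, 87.4 and 87.5 CPM in Tg26 mice, against 10.2, 8.99 and 10.2 CPM in WT mice (log2FC 3.4 ± 0.35, adjusted p = 0.000195, edgeR), and Ctsk, a collagen-cleaving cathepsin, had 14.9, 10.3 and 7.95 CPM in Tg26 mice, against 2.43, 2.58 and 2.89 CPM in WT mice (log2FC 2.07 ± 0.31, adjusted p = 0.00101, edgeR). Both were above WT in each Tg26 mouse. Of 17 cytochrome P450 enzymes, 5 were called lower and 1 higher, with 3 lower without WT mouse 1, without WT mouse 2 or with library sizes alone. With only the 6 untreated libraries, 1 was called lower. The riser was Cyp1b1, with 70.4, 42.8 and 47.5 CPM in Tg26 mice, against 12.8, 20.7 and 26.2 CPM in WT mice (log2FC 1.43 ± 0.29, adjusted p = 0.00513, edgeR). Of 16 amino acid transporters, 3 were called lower (18.75%, beside 10.5% of all genes) and 1 higher (6.25%, beside 15.7%). The glutamine carrier Slc38a2 was the member called higher, with 103, 73.5 and 98.4 CPM in Tg26 mice, against 47.9, 48.6 and 64.3 CPM in WT mice (log2FC 0.77 ± 0.14, adjusted p = 0.00295, edgeR). The lower count was 1 without WT mouse 2, 5 without Tg26 mouse 2 and 6 without Tg26 mouse 3, the higher count was 2 without either of these Tg26 mice, and with library sizes alone 1 was lower and 3 higher. Of 14 immediate early genes, 6 were called higher and 0 lower, and the transcription factor Egr2 had 8.3, 7.39 and 2.91 CPM in Tg26 mice, against 0.641, 0.127 and 0.0482 CPM in WT mice (log2FC 4.49 ± 0.64, adjusted p = 0.000823, edgeR), with a log2FC of 6.03 without WT mouse 1. The count of 6 was 2 without WT mouse 2, 3 without Tg26 mouse 1 and 4 without WT mouse 3 or Tg26 mouse 2.

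Red cell genes were uneven between mice and none of 5 was called, with 0 at an unadjusted p under 0.05 in edgeR. The hemoglobin chain Hbb-bs had 13.9, 23.3 and 83.4 CPM in Tg26 mice, against 154, 154 and 87.4 CPM in WT mice, so that Tg26 mice 1 and 2 were low and Tg26 mouse 3 lay with WT mouse 3. Alas2, the heme synthesis enzyme of red cell precursors, had 0.310, 0.722 and 2.69 CPM in Tg26 mice, against 4.58, 4.6 and 3.23 CPM in WT mice. These values stand beside that of Klf1 above, and their part in it was not tested. Liver genes, a list added after the data were seen, stood at 1.26, 0.14 and -1.65 in Tg26 mice, against 1.65, -1.50 and 0.12 in WT mice as mean log2 CPM relative to the 6 mice. Tg26 mouse 1 and WT mouse 1 were high, and 0 of 8 genes were called by edgeR.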
